A study of Homo sapiens with 4 samples.

Results

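The insulin-like growth factor (IGF) axis genes described here were the 7 IGF-binding proteins, *IGFBP1* to *IGFBP7*, and the 3 receptors *IGF1R*, *IGF2R* and *INSR*. They were taken by gene symbol from the expression table of 2D cultures. These 10 genes stood among 30843 listed genes, and all 10 were among the 17632 that passed the filter on low values. The cells were A549, an established human lung adenocarcinoma line, of the WT genotype in the labels and with no transgene or drug in either group. They grew on plastic well plates in DMEM with foetal bovine serum. In the RM+ group the plate was connected to a unit that moved the air pressure back and forth between slightly below atmospheric and atmospheric, a simulation of respiratory motion (RM), and the RM- plate was left unconnected. RNA was taken on day 4 from 2 samples per group, with replicate 1 of both groups labelled batch 1 and replicate 2 labelled batch 2. The labels do not say that the replicates were separate cultures, so the spread behind the p-values below is that of these libraries and could be technical. The model is a single cell line without stromal or immune partners.

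IGFs are secreted ligands that drive growth and survival through *IGF1R*, a receptor tyrosine kinase closely related to the insulin receptor *INSR*. The IGFBPs are secreted proteins that hold most extracellular IGF, keep it from the receptor or deliver it, and are cut by proteases that release the ligand. *IGF2R* lacks kinase activity; it takes IGF2 to the lysosome for breakdown and also sorts newly made lysosomal enzymes that carry mannose 6-phosphate.

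Values are normalised read counts, that is, the reads of a gene divided by the size factor of its sample. The samples held 18754356 to 20412283 reads, and 1 read was worth 0.956 to 1.02 normalised counts. Mitochondrially encoded genes took 5.36% and 3.69% of the counts in the RM- samples (replicates 1 and 2) and 4.56% and 2.57% in the RM+ samples. The share was lower in batch 2 in both groups. Of 13 epithelial and A549 marker genes, 12 had a mean of at least 10, the exception being *TFF1*, and their summed level, most of it from abundant genes such as *ALDH1A1*, was 323972 to 327838 in RM- and 332118 to 349421 in RM+. Within that list the fibrinogen gene *FGB* fell, from 279 and 352 to 200.2 and 177 normalised counts (log2 fold change -0.73, limma adjusted p = 0.0140), and *FGA* had a log2 fold change of -0.34 (0.120). Others in the list went the other way. The largest of these changes was that of *KRT19*, from 680 and 590 to 792 and 890 (0.41, limma adjusted p = 0.0574). No tested gene of the list other than *FGB* passed. Of the fibroblast markers 2 of 7 in the table reached that level, with sums of 155 to 168 and 154 to 174. Endothelial markers (1 of 6, *ESAM*) summed to 42.1 to 61.5 and 66.6 to 84.3, and immune markers (1 of 5, *CD14*) to 195 to 217 and 229 to 245. The part of these differences in the results below was not tested. *PTPRC*, the pan-leukocyte marker, was at 2.87 or less in every sample.

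The promoters of the 3 receptors and of *IGFBP4* are given first, so that *IGF2R*, the receptor that changed, can be set beside the receptors that did not pass the test and the binding protein with the highest level. They cover the 250 bases before the RefSeq start on GRCh38.p14, in the direction of the gene, at chr6:159968832-159969081 (plus strand, *IGF2R*), chr15:98648289-98648538 (plus strand, *IGF1R*), chr19:7294415-7294664 (minus strand, *INSR*) and chr17:40443200-40443449 (plus strand, *IGFBP4*). Capitals mark any of 3 short motifs, searched on either strand, and adjoining capitals can be overlapping matches. One is the E-box, spelled CACGTG, which reads the same on both strands. The next is the core promoter element known as the TATA box, spelled TATAAA in this search. The last is the GC-rich element known as the GC box, spelled GGGCGG and found here in 42.6% of promoters.
IGF2R: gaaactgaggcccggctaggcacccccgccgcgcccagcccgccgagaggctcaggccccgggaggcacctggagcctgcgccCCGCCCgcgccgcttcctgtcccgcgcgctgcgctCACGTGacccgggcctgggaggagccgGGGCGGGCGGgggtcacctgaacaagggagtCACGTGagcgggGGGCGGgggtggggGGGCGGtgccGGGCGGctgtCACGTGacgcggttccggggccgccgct
IGF1R: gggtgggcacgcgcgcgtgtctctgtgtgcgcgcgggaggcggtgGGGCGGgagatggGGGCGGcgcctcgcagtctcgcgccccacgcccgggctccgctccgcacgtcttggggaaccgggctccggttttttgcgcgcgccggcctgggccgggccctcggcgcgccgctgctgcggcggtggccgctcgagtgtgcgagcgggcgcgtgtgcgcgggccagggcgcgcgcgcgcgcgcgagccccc
INSR: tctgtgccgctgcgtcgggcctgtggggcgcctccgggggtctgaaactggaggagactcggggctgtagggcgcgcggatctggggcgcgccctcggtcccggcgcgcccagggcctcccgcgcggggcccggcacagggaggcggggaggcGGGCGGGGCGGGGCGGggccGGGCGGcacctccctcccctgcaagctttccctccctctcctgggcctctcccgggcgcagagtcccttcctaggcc
IGFBP4: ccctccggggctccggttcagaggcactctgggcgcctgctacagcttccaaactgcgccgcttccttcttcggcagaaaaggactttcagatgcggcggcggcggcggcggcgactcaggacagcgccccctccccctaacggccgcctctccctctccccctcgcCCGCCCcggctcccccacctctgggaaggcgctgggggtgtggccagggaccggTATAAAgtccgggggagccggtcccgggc

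The *IGF2R* promoter held 3 E-boxes, the first bases of which lay 132, 74 and 28 bases before the start, and 6 GC boxes. The E-box occurred in 6.34% of 35116 RefSeq promoters of the same length, and 28 of them (0.0797%) held 3 or more. Neither *IGF1R*, with 2 GC boxes, nor *INSR*, with 4, held an E-box or a TATA box. The *IGFBP4* promoter held a TATA box 29 bases before the start, a motif found in 10.7% of promoters, and a GC box 83 bases before it. The 250 bases were 71.6% G and C in *IGFBP4*, 79.2% in *IGF2R*, 81.2% in *IGF1R* and 78.4% in *INSR*. Promoter sequences were matched for 8 of the 10 genes, all but *IGFBP1* and *IGFBP7*. The promoter of *IGFBP3*, which also passed the test but is not shown, held 2 GC boxes and no E-box or TATA box. Its RefSeq start lay 602 bases from its start in the expression table. The motifs were chosen after the expression values had been seen, and a match describes the letters only. The hypoxia response core ACGTG (in 18.5% of promoters) and the forkhead core GTAAACA (2.98%) were also searched and are not marked. *IGF2R* held 6 matches of the hypoxia core, all inside its E-boxes, and *IGF1R* held 1. The forkhead core was in none of the sequences shown, but the *IGFBP6* promoter, not shown, held it 186 bases before the start.

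At the adjusted threshold, 2 binding proteins were lower and 1 receptor was higher in RM+ than in RM-. *IGFBP1* and *IGFBP3*, neighbours on chromosome 7, fell by 36.5% and 33.7%, and *IGF2R*, the receptor that clears IGF2, rose 1.35-fold. *IGFBP4*, the most abundant binding protein, was lower by 24.7% but missed the threshold. *IGF1R* and *INSR*, the signalling receptors, had overlapping groups.

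In limma's moderated test, adjusted over the 17632 genes, 1 of the 10 genes was higher in RM+ and 2 were lower at an adjusted p under 0.05, whereas 1.46% of all tested genes were higher and 0.794% lower by that rule. The excess of higher genes was not kept without RM+ replicate 1, where 244 genes were higher and 284 lower. With the replicate number as a block, since it marks the batch, 2 were higher and 4 lower, against 5.1% and 4.63% of all genes. edgeR's quasi-likelihood test on the recovered reads called 4, 1 higher and 3 lower, against 1.99% of all genes in either direction. By the study's own rule for differential expression, which asked for a log2 fold change above 1 or below -1 with an unadjusted p under 0.05, none was higher and 1, *IGFBP5*, was lower, against 0.749% and 0.403%. That call was made with limma, and with DESeq2 none of the 10 genes met the rule. Without RM+ replicate 1 the rule called 97 genes higher and 200 lower, against 132 and 71 with all samples. Both RM+ samples lay above both RM- samples in 3 of the 10 genes and below them in 4, and each of these patterns was found in 22.2% of all tested genes. With 2 samples per group an exact permutation test of a single gene cannot give a two-sided p below 0.333.

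**Figure D1:**
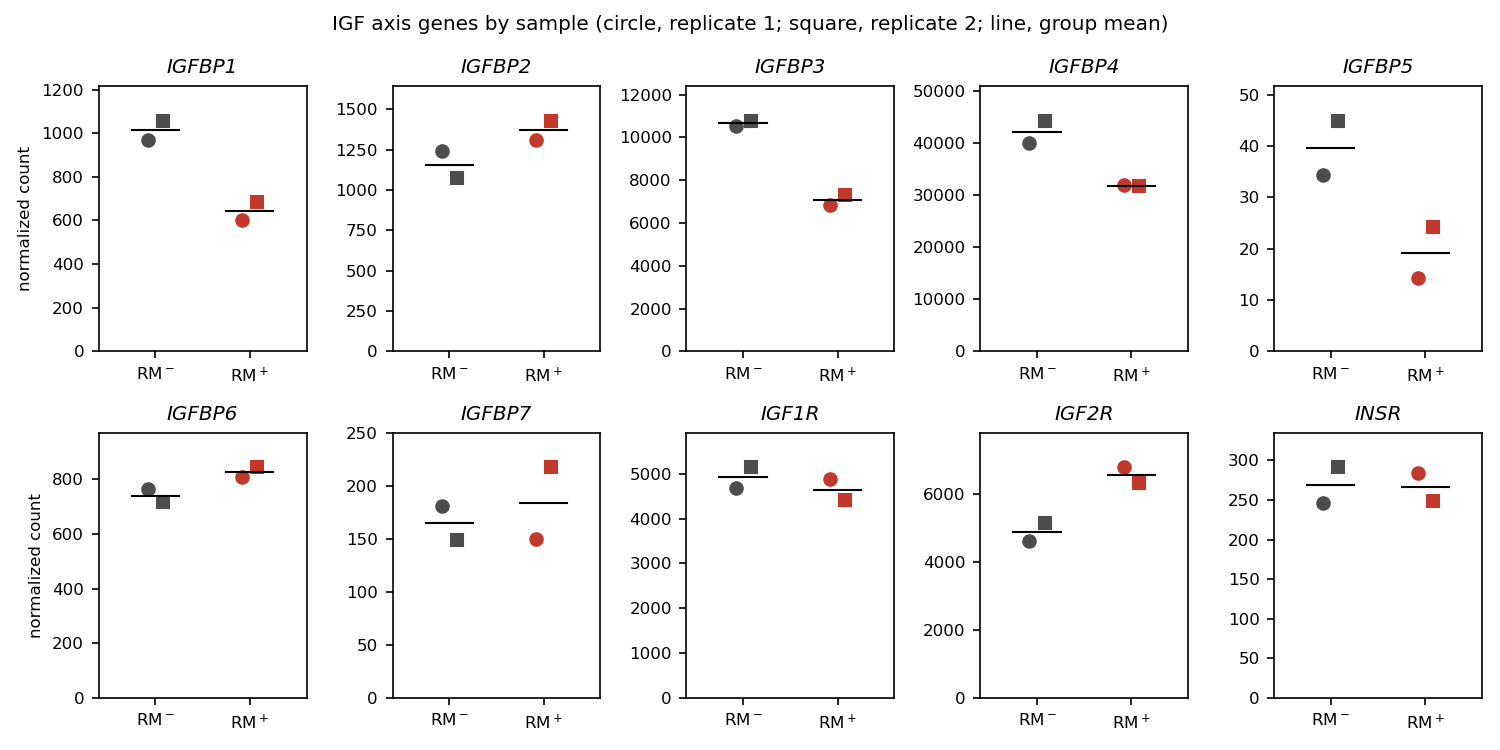
Normalised counts of the 10 genes in each sample (circle, replicate 1; square, replicate 2; line, group mean), each panel with its own linear axis from 0. *IGFBP1*, *IGFBP3*, *IGFBP4* and *IGFBP5* were lower in both RM+ samples, *IGFBP2*, *IGFBP6* and *IGF2R* higher, and the groups of *IGFBP7*, *IGF1R* and *INSR* overlapped.

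*IGFBP1* (ENSG00000146678, chr7:45888360-45893660, plus strand) encodes a binding protein that insulin represses in liver. Its normalised counts were 968 and 1058 in the RM- samples and 603 and 684 in the RM+ samples. Both RM+ samples were well below both RM- samples, and in each group batch 2 was the higher. The means were 1013 ± 63.5 and 643 ± 57.3 (SD, n = 2), and the log2 fold change of RM+ over RM- was -0.66 (SE 0.10, limma adjusted p = 0.00242). Within batch 1 it was -0.68 and within batch 2 it was -0.63.

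*IGFBP3* (ENSG00000146674, chr7:45912245-45921874, minus strand) encodes the main IGF carrier in blood, where it binds the ligand together with the acid-labile subunit. It had 10532 and 10789 normalised counts in RM- and 6854 and 7287 in RM+. The gap between the groups was many times the difference within either. The means were 10661 ± 181 and 7070.2 ± 306 (SD, n = 2), with a log2 fold change of -0.59 (SE 0.09, limma adjusted p = 0.00169), the smallest p of the 10 genes and number 30 of all 17632. The change was -0.62 within batch 1 and -0.57 within batch 2. The ratio of *IGFBP3* to *IGFBP1* counts, not divided by length, was 10.9 and 10.2 in RM- and 11.4 and 10.7 in RM+, so that it overlapped between the groups.

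*IGFBP1* and *IGFBP3* lie tail to tail, 18.6 kb apart on GRCh38. Of the 9 tested genes within 1 Mb of the pair, these 2 were the ones called. The 7 others, among them *SNHG15*, *CCM2*, *TBRG4*, *ADCY1* and 2 pseudogenes, had adjusted p-values of 0.405 or more. An unnamed gene among these 7, with a mean of 18.9 normalised counts, had a log2 fold change of -0.88 (SE 0.46, limma adjusted p = 0.405). *CCDC201* and *LOC102723446*, the nearest genes on the outer sides, were below the filter, with means of 2 and 0.254 normalised counts.

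*IGFBP2* and *IGFBP5* form a second tail-to-tail pair, 7.7 kb apart on chromosome 2, and here the fitted changes had opposite signs. *IGFBP2* (ENSG00000115457, chr2:216632828-216664436, plus strand), a binding protein often abundant in carcinoma cells, had 1241 and 1072 normalised counts in RM- and 1311 and 1429.7 in RM+. The groups did not overlap, but the batch 1 samples were only 0.08 apart on the log2 scale, against 0.42 in batch 2. The fitted log2 fold change was 0.25 (SE 0.10, 95% interval 0.04 to 0.45) with a limma adjusted p of 0.233, and 0.0199 with the replicate block.

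*IGFBP5* (ENSG00000115461, chr2:216672105-216695549, minus strand), which binds extracellular matrix as well as IGFs, was the scarcest of the 10. Its normalised counts were 34.3 and 44.9 in RM- and 14.2 and 24.2 in RM+, from 34, 47, 14 and 24 reads. Both RM+ samples were lower, at a depth where a handful of reads moves the value. The log2 fold change was -1.04 (SE 0.36, 95% interval -1.81 to -0.27, unadjusted p = 0.0112), with a limma adjusted p of 0.179, and 0.0420 with the replicate block. Without RM- replicate 2 the fold change was -0.85 and without RM+ replicate 1 it was -0.67, and the call by the study's rule was lost in both. The nearest expressed neighbours were *IGFBP2* itself and, beyond it, the ribosomal protein gene *RPL37A*, which was not called at a log2 fold change of -0.15. None of the 14 tested genes within 1 Mb of this pair was called. *DIRC3-AS1*, on the opposite strand over *IGFBP5*, had a mean of 4.25 normalised counts.

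**Figure D2:**
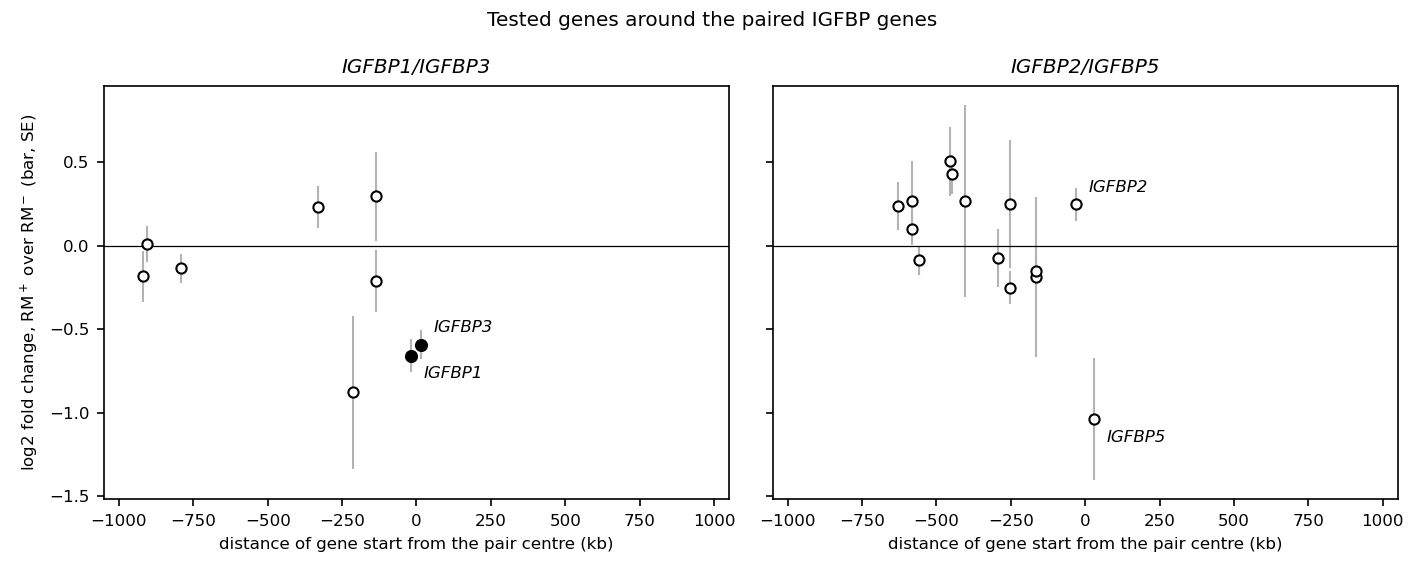
Log2 fold change of RM+ over RM- (point, with its SE as a bar) for every tested gene within 1 Mb of each tail-to-tail pair, against the distance of the gene's start from the middle of the pair in kb; filled points had an adjusted p under 0.05. *IGFBP1* and *IGFBP3* sit together at -0.66 and -0.59, while *IGFBP2* and *IGFBP5* sit on opposite sides of 0, at 0.25 and -1.04.

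*IGFBP4* (ENSG00000141753, chr17:40443450-40457725, plus strand) encodes an inhibitory binding protein that the protease PAPPA cleaves. It had 40026 and 44305 normalised counts in RM- and 31868 and 31659 in RM+. The RM+ samples nearly coincided, and both were below the RM- samples, which differed more from each other. The means were 42166 ± 3026 and 31763 ± 148 (SD, n = 2), with a log2 fold change of -0.41 (SE 0.11, 95% interval -0.64 to -0.18) and a limma adjusted p of 0.0613. With the replicate block it was called (adjusted p = 2.57e-07), as it was by edgeR (0.0365), DESeq2 (2.89e-05), limma-voom (0.00950) and limma after TMM rescaling (0.0447). With edgeR's block fit, *IGFBP4* passed in 6 of 14 alternatives. Limma did not call it with a pseudocount of 0.5 (adjusted p = 0.0600) or 5 (0.0668), the filter in every sample (0.0746) or no filter (0.432). With each sample left out in turn its log2 fold change was -0.48 to -0.33, and it did not pass. The change was -0.33 within batch 1 and -0.48 within batch 2. The nearest listed genes, the pseudogene *RPL23AP75* and an unnamed gene, had means of 0.493 and 16.5 normalised counts.

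*IGFBP6* (ENSG00000167779, chr12:53097436-53102345, plus strand), which prefers IGF2 to IGF1, had 764 and 717 normalised counts in RM- and 808 and 845 in RM+. The groups did not overlap, but their gap was small. The log2 fold change was 0.16 (SE 0.10, 95% interval -0.04 to 0.36, limma adjusted p = 0.492). The neighbouring gene *SPRYD3* had a log2 fold change of -0.0029 (limma adjusted p = 0.995), and *SOAT2* had a mean of 1.27 normalised counts.

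*IGFBP7* (ENSG00000163453, chr4:57030773-57110385, minus strand), a matrix-bound member with low affinity for IGFs, had 182 and 149 normalised counts in RM- and 150.4 and 218 in RM+. The groups overlapped, and the batches went in opposite directions, -0.27 in batch 1 and 0.55 in batch 2. The log2 fold change was 0.14 (SE 0.18, 95% interval -0.25 to 0.53, limma adjusted p = 0.806). The gene overlaps *POLR2B* on the opposite strand (mean of 2825 normalised counts) and *IGFBP7-AS1* (17.7). Whether the counting used strand is not stated in the sources used here, so reads from these genes may not be separable.

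Summed over the 7 genes, the binding proteins had 22011 and 23981 normalised counts per kb of exon in RM- and 17304 and 17443 in RM+. Every RM+ sum lay below every RM- sum. *IGFBP4* made up 82.7% and 84.0% of the sum per kb in RM- and 83.7% and 82.5% in RM+, so that its share overlapped between the groups. *IGFBP3* made up 10.5% and 9.84% in RM- and 8.66% and 9.14% in RM+, and *IGFBP2* 1.18% and 0.937% against 1.59% and 1.72%. These sums and shares are a description and were not tested. In bulk RNA, fewer cells expressing a gene and less RNA per cell cannot be told apart.

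**Figure D3:**
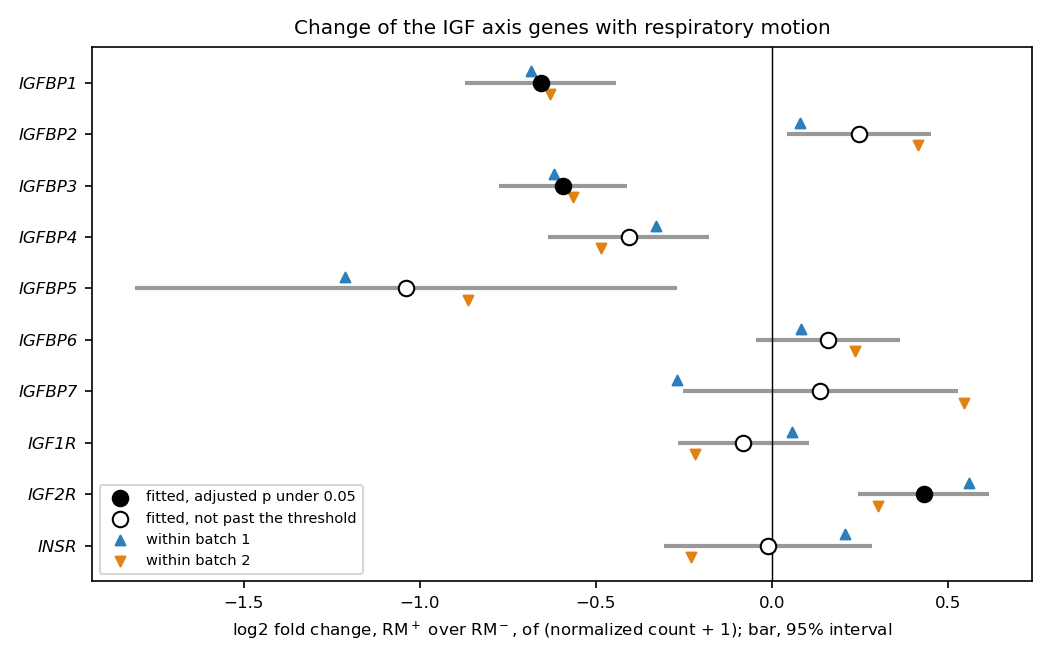
Log2 fold change of RM+ over RM- for each gene, on the scale of normalised count + 1 (circle, fitted value, filled where the adjusted p was under 0.05; bar, 95% interval; triangles, values within batch 1 and batch 2). The intervals of *IGFBP1*, *IGFBP3*, *IGFBP4* and *IGFBP5* lie below 0, those of *IGFBP2* and *IGF2R* above it, and the widest belongs to *IGFBP5*.

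Among the receptors, *IGF2R* (ENSG00000197081, chr6:159969082-160113507, plus strand) was the one called. It had 4602 and 5127 normalised counts in RM- and 6785 and 6317 in RM+. Both RM+ samples were above both RM- samples. The means were 4865 ± 371 and 6551 ± 332 (SD, n = 2), with a log2 fold change of 0.43 (SE 0.09, 95% interval 0.24 to 0.62, limma adjusted p = 0.0149). The change was larger in batch 1 (0.56) than in batch 2 (0.30), and without RM+ replicate 1 it was 0.38 with an adjusted p of 0.0536, which no longer passed. Its antisense gene *AIRN* had a mean of 0.252 normalised counts. *MRPL18*, 171 kb away, had a log2 fold change of -0.11 (limma adjusted p = 0.673).

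*IGF1R* (ENSG00000140443, chr15:98648539-98964530, plus strand), the receptor through which IGF1 and IGF2 signal, had 4693 and 5154 normalised counts in RM- and 4879 and 4425 in RM+. The groups overlapped. The log2 fold change was -0.08 (SE 0.09, 95% interval -0.27 to 0.10, limma adjusted p = 0.747). *INSR* (ENSG00000171105, chr19:7112255-7294414, minus strand), the insulin receptor, had 246 and 292 in RM- and 285 and 248 in RM+. These groups overlapped too, with a log2 fold change of -0.01 (SE 0.14, 95% interval -0.31 to 0.28, limma adjusted p = 0.984). All 3 receptors had the more positive change in batch 1, with 0.06, 0.56 and 0.21 for *IGF1R*, *IGF2R* and *INSR* against -0.22, 0.30 and -0.23 in batch 2. The ratio of *IGF2R* to *IGF1R* counts, not divided by length, was 0.981 and 0.995 in RM- and 1.39 and 1.43 in RM+. The replicates nearly coincided in this ratio, which was not tested.

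Near the receptors, *SYNM-AS1* on the opposite strand within *IGF1R* had a mean of 49.3 normalised counts and a log2 fold change of 0.50 (limma adjusted p = 0.438). The antisense RNA *IRAIN* and *LUNAR1* flank *IGF1R*, with means of 7.71 and 10.3. *LUNAR1* had 14.1 and 19.1 normalised counts in RM- and 8.13 and 0 in RM+. Its log2 fold change was -2.53 (limma adjusted p = 0.157), at a level close to the filter. *ZNF557* and *ARHGEF18*, on either side of *INSR*, had log2 fold changes of -0.05 and -0.0041 (limma adjusted p of 0.950 and 0.993).

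Levels of different genes were compared per kb of exon, since longer transcripts give more reads. The length was that of all annotated exons of a gene merged. It can exceed the length of the transcript that is expressed, so the order below depends on this choice. In RM- the order ran *IGFBP4* (19166 normalised counts per kb), *IGFBP3* (2332), *IGFBP1* (613), *IGFBP6* (550.0), *IGF1R* (353), *IGF2R* (273), *IGFBP2* (243), *IGFBP7* (85.7), *INSR* (25.7) and *IGFBP5* (6.15). Of the neighbours in that order, *IGF2R* and *IGFBP2* overlapped between samples. In RM+ *IGFBP6* (614) stood above *IGFBP1* (389), and *IGF2R* (367) above *IGF1R* (334), which reversed both of these orders. There *IGFBP1* and *IGF2R* overlapped between samples, and no other neighbours did.

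**Figure D4:**
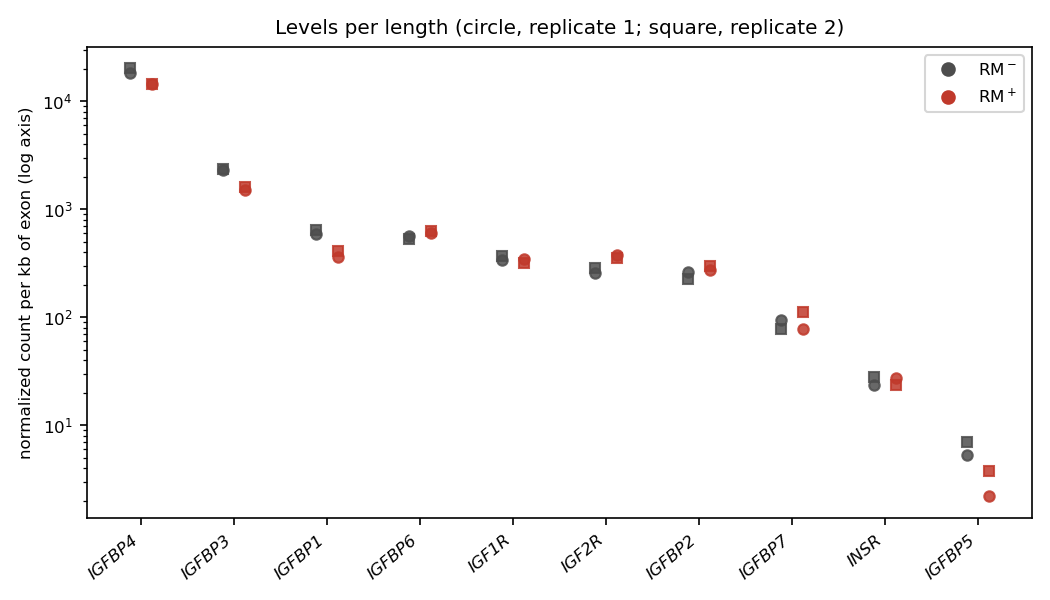
Normalised counts per kb of exon for each gene and sample on a log axis, in the order of the RM- means (grey, RM-; red, RM+; circle, replicate 1; square, replicate 2). *IGFBP4* stands highest, at 14390 to 20139 per kb, and *IGFBP5* lowest, at 2.21 to 6.97.

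The ligands were scarcely expressed. *IGF1* had 0 and 1.91 normalised counts in RM- and 0 in both RM+ samples. *IGF2* had 3.03 and 1.91 against 1.02 and 2.02, and the acid-labile subunit *IGFALS* 2.02 and 0 against 3.05 and 0. All 3 were below the filter, so no change was tested, and *INS* was not found by its symbol in the expression table.

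Of the 95 other genes of the pathway lists, 81 were tested, of which 6 rose, none fell and 75 did not pass limma's adjusted threshold, with a median log2 fold change of 0.01 against -0.0029 over all tested genes. By that rule 1.46% of all tested genes were higher and 0.794% lower. With the replicate block 14 rose and 6 fell, where 5.1% and 4.63% of all tested genes did. These shares over all genes also stand behind the counts of each list below. The 6 that rose lay in 3 of the lists.

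Among the proteases that cut IGFBPs and their inhibitors, 2 of 9 tested genes rose and none fell (median log2 fold change 0.33), and with the replicate block 5 rose and 1 fell, *HTRA1* among those that rose. *STC2*, an inhibitor of PAPPA, had 1217 and 1329.7 normalised counts in RM- and 1753 and 1977 in RM+. Both RM+ samples were higher, with a log2 fold change of 0.55 (SE 0.09, limma adjusted p = 0.00391). The lysosomal protease gene *CTSD* had 6908 and 5799 in RM- and 8624 and 8254 in RM+, a log2 fold change of 0.41 (SE 0.09, limma adjusted p = 0.0289). Its adjusted p was 0.209 without RM- replicate 2 and 0.0610 without RM+ replicate 1. It overlaps *PRADX* on the opposite strand, which had a mean of 4317 and a log2 fold change of 0.39.

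*PAPPA*, the protease of *IGFBP4*, had 1874 and 2119 normalised counts in RM- and 2409 and 2598 in RM+. The groups did not overlap, at a log2 fold change of 0.33 and a limma adjusted p of 0.0706, or 0.000113 with the replicate block. *PAPPA-AS1*, which overlaps it on the opposite strand, had a mean of 547 and a log2 fold change of 0.14. *STC1*, the other stanniocalcin that inhibits PAPPA, had 481 and 549.7 normalised counts against 406 and 427 (log2 fold change -0.30, limma adjusted p = 0.214, or 0.0381 with the block). *PLAT*, tissue plasminogen activator, had 27.2 and 28.7 against 64.0 and 40.4 (0.84, limma adjusted p = 0.206).

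Of the other genes whose products carry an IGFBP domain, 3 of 9 tested rose and none fell (median 0.18), and with the replicate block 4 rose, the fourth being *HTRA1*, which is also counted among the proteases. *CCN5* had 204 and 206 normalised counts in RM- and 367 and 421 in RM+. Its log2 fold change was 0.94 (SE 0.13, limma adjusted p = 0.00123). *CCN3* had 225 and 239 against 357 and 474, a log2 fold change of 0.82 (SE 0.14, limma adjusted p = 0.00467). Both encode matricellular proteins of the CCN family. Of the same family and list, *CCN1* and *CCN2* were more abundant, with RM- means of 2541 and 2197 normalised counts. Their log2 fold changes were -0.0029 and 0.14 (limma adjusted p of 0.976 and 0.516), and *CCN4* was below the filter. *IGFBPL1*, an IGFBP-like gene, had 217 and 255 against 338 in both RM+ samples. Its log2 fold change was 0.52, with a limma adjusted p of 0.0498 that no longer passed when RM- replicate 1 (0.179) or either RM+ sample (0.0937 and 0.112) was left out. It was not called by edgeR (0.0655), DESeq2 (0.135), limma-voom (0.0646), limma after TMM rescaling (0.0610) or with a pseudocount of 5 (0.0503), and passed in 5 of 14 alternatives. The log2 fold changes of *HTRA1*, *CRIM1* and *KAZALD1* were 0.22, 0.18 and -0.28, with limma adjusted p-values of 0.237, 0.393 and 0.464. With the block *HTRA1*, a serine protease, was called (0.0406).

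Of the cell-surface partners of IGFBPs, none of 7 tested genes passed (median log2 fold change -0.01), and with the replicate block 1 rose and 2 fell. *ITGA5*, the integrin subunit of the fibronectin receptor that the IGFBP1 protein binds, had 1088 and 1060.1 normalised counts in RM- and 872 and 870.4 in RM+. Its log2 fold change was -0.30 (limma adjusted p = 0.108, or 0.00520 with the block). The log2 fold change of *CAV1*, caveolin 1, was -0.27 (limma adjusted p = 0.178, block 0.00127) and that of *SDC1*, syndecan 1, was 0.26 (0.146, block 0.00112). The mRNA-binding proteins of *IGF2*, *IGF2BP1*, *IGF2BP2* and *IGF2BP3*, had log2 fold changes of 0.01, -0.11 and -0.15 (median -0.11), none of them called.

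Downstream of the receptors, none of the 14 tested substrates and adaptors passed (median log2 fold change -0.07; 1 rose and 1 fell with the block). The log2 fold change was 0.27 for *PTPN1*, a phosphatase of the insulin receptor, -0.31 for the feedback inhibitor *SOCS3* and -0.26 for the adaptor *GRB14*, with limma adjusted p-values of 0.178, 0.259 and 0.317. With the block *PTPN1* (0.0132) and *SOCS3* (0.0474) were called. None of 22 genes of PI3K, AKT and mTOR passed (median -0.01). With the block 2 rose and 2 fell, against 5.1% and 4.63% of all genes. *RPTOR*, the scaffold of mTOR complex 1, had 1254 and 1206 normalised counts in RM- and 1525 and 1539.8 in RM+, a log2 fold change of 0.32 (limma adjusted p = 0.0697, block 0.000912).

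*RICTOR*, the scaffold of mTOR complex 2, went the other way in value, with 1263 and 1380.4 normalised counts in RM- and 1028 and 1062 in RM+. Its log2 fold change was -0.34 (limma adjusted p = 0.0655, block 0.000587). *RPS6KB1*, a kinase below mTOR complex 1, had a log2 fold change of -0.28 (limma adjusted p = 0.147, block 0.00861). None of 8 FOXO factors and insulin-repressed genes passed, with or without the block (median -0.01). *FOXO1*, *TRIB1* and *FOXO4* had log2 fold changes of 0.35, -0.20 and -0.31, with limma adjusted p-values of 0.349, 0.392 and 0.479.

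The list of genes that process, sort or degrade the receptors held 11 tested genes, 1 of which, *IGF2BP2*, is an mRNA-binding protein already counted above. Without it, 1 of 10 rose and none fell (median log2 fold change -0.01, or -0.04 with it), and 2 rose with the block. *MDM2*, a ubiquitin ligase of *IGF1R* and of p53, had 1563 and 1704 normalised counts in RM- and 2339 and 2491 in RM+. Its log2 fold change was 0.56 (SE 0.09, limma adjusted p = 0.00242), and an unnamed gene that overlaps it on the opposite strand had one of 0.67. *M6PR*, the other mannose 6-phosphate receptor, had 4214 and 4288 against 5094 and 5443. Its log2 fold change was 0.31 (limma adjusted p = 0.0655, block 8.37e-05), beside 0.43 for *IGF2R*. *M6PR* held no E-box in the 250 bases before its start, and neither did *STC2* or *PAPPA*, while *CTSD* held 1. *PAPPA* held a TATA box and a forkhead core, 28 and 137 bases before its start. No other genes of the pathway lists were searched, so the promoters of *CCN5*, *CCN3*, *IGFBPL1* and *MDM2* were not. The RefSeq start used for *CTSD* lay 646 bases from its start in the expression table. *PCSK5*, a proprotein convertase, had a log2 fold change of 0.55 (limma adjusted p = 0.334) and the ubiquitin ligase *CBL* one of -0.11 (0.678).

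**Figure D5:**
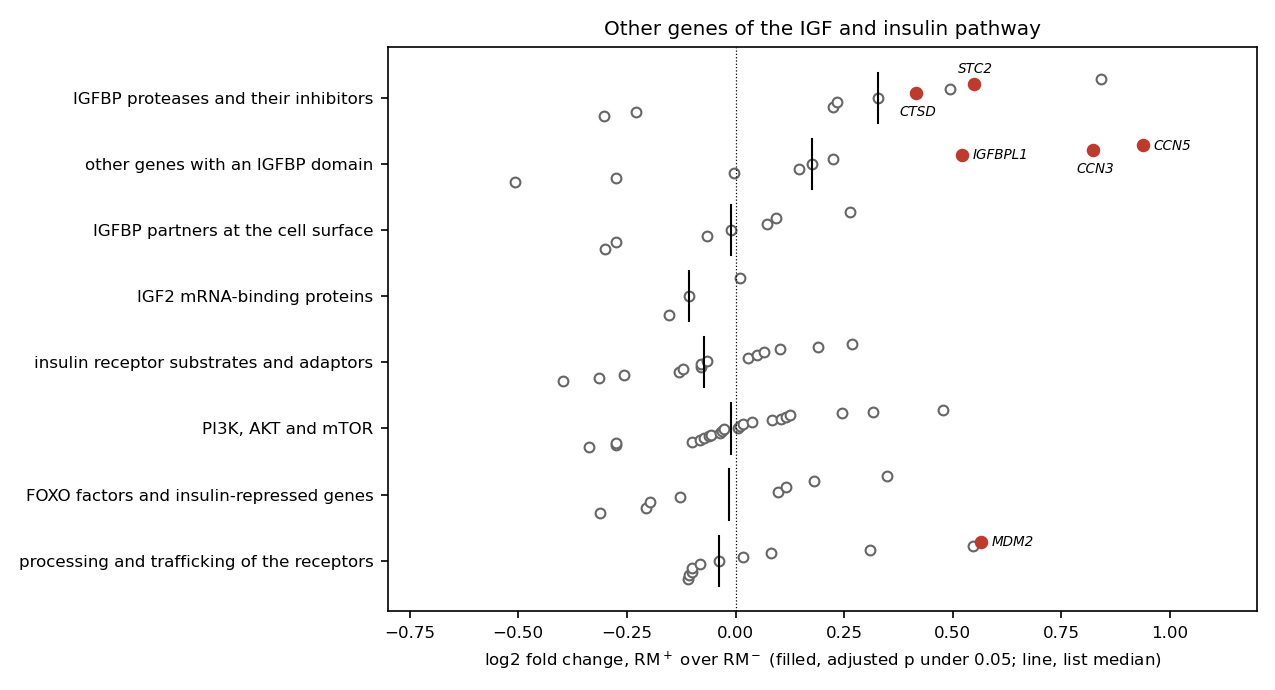
Log2 fold change of RM+ over RM- for every tested gene of the other pathway lists (filled and named, adjusted p under 0.05; vertical line, list median). The 6 called genes, *STC2*, *CTSD*, *CCN5*, *CCN3*, *IGFBPL1* and *MDM2*, all lie right of 0, between 0.41 and 0.94.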

How the data were processed

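RNA of 4 samples of A549 cells in 2D culture was sequenced after poly(A) enrichment with a stranded kit. According to the submitters' processing notes, reads went through Trimmomatic 0.38, HISAT2 2.1.0 on GRCh38 and featureCounts 1.6.3, with FastQC 0.11.7 and DESeq2 1.24.0 also named. Which annotation was counted, and whether by strand, is not stated in the sources used here. Per sample, the authors deposited a signal, the count of each gene divided by the size factor of the sample. Their mean, log2 fold change, standard error, statistic and p-value columns were not used, and 0 columns belonged to other samples.

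Genes reaching 10 normalised counts in 2 or more samples entered a limma 3.58.1 fit (R 4.3.3; trend, two-sided, Benjamini-Hochberg) on log2(normalised count + 1). Fold changes on that scale understate those of low genes. The prior added 14.8 degrees of freedom to the 2 residual ones. Whole reads were recovered from each column's step per read (100% of values whole within 1e-06). These were tested in edgeR 4.0.16, which called 351 genes, DESeq2 1.42.0 and limma-voom as alternatives. The others were TMM rescaling, no filter, a filter in every sample, pseudocounts of 0.5 and 5, a replicate block (with limma and edgeR) and leaving out each sample. The statistics were tested on simulated data. The labels tie the replicate number to the batch, and deviations from the group means correlated between samples sharing a number (0.168 over 17632 genes, 0.314 over the 10289 with a mean over 200). The block fit has few residual degrees of freedom and rests mainly on the spread pooled over all genes. Replicates differed beyond sampling noise (chi-square per gene 9.81 and 11.5).

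The genes and lists were chosen with earlier results of these data known. The lists were ligands and acid-labile subunit, proteases and inhibitors, IGFBP-domain genes, cell-surface partners, IGF2 mRNA-binding proteins, substrates and adaptors, PI3K, AKT and mTOR, FOXO and insulin-repressed genes, receptor processing and trafficking, and epithelial, fibroblast, endothelial and immune markers. Named were all 10 genes, every called gene of a pathway list and up to 3 others with the smallest p, and overlapping or adjacent genes, not all of which are reported here. *FGB*, *FGA* and *KRT19* were named from the epithelial markers after their values were seen. *CCN1*, *CCN2* and *CCN4* were named as members of the family of *CCN3* and *CCN5*. Exon lengths are those of all annotated exons of a gene merged. They come from GENCODE 29, which may differ from the authors' annotation, and promoters from RefSeq.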

Additional observations from a re-analysis of the deposited data

How the results depend on the processing

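The 3 calls among the 10 genes kept their direction in all 14 alternatives, and no gene past the threshold reversed. The groups of *IGFBP1*, *IGFBP3* and *IGF2R* did not overlap, so dropping a sample could not turn the sign of their changes. The filter settings and the limma block left these fold changes as they were. The kept direction was therefore largely fixed in advance and is no test of the calls. *IGFBP7* and *INSR*, which were never called, changed sign in 2 alternatives each. Without a filter on low values no gene passed limma's adjusted threshold, so that 0 of all genes (2911 at an unadjusted p under 0.05), 0 of the 10 genes (5) and 0 of the pathway list genes (21) were called, against 398, 3 and 6. That setting tested 30843 genes and gave adjusted p-values of 0.385 for *IGFBP1*, 0.357 for *IGFBP3* and 0.420 for *IGF2R*. edgeR, run with the filter, called 4 of the 10 genes.

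With the replicate block, which pairs the samples by batch, limma called 1717 of all genes, 6 of the 10 genes and 20 of the pathway list genes, and edgeR with the block called 1697, 5 and 20. The block brought *IGFBP2*, *IGFBP4* and *IGFBP5* past the threshold in limma and changed no other call among the 10 genes. In edgeR with the block *IGFBP5* stayed outside (adjusted p = 0.0534).

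By the rule of an unadjusted p and a log2 fold change beyond 1, 203 genes were called, against 88 with DESeq2, 883 without a filter, 85 with the filter in every sample and 102 with a pseudocount of 5. The 1 call of this kind among the 10 genes, *IGFBP5*, fell to 0 with DESeq2 and with a pseudocount of 5. Leaving out each sample in turn gave 329 to 690 genes at the adjusted threshold, 2 to 3 of the 10 genes and 5 to 6 of the pathway list genes, and by the other rule 220 to 305 genes and 0 to 1 of the 10. The counts of 690 and 305 were without RM- replicate 1, and the count of 2 was without RM+ replicate 1, where *IGF2R* missed the threshold. These fits take the spread of the remaining lone sample from the other group, and that lone sample represents a single batch.

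Depth limits *IGFBP5* most, with 14 to 47 reads per sample.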
